A study of Mus musculus with 8 samples.

Results

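The genes that encode Wnt ligands, their Frizzled and Lrp5/Lrp6 receptors and their secreted antagonists were examined in RNA-seq libraries of 4T1 spheroids. The members were all rows of the deposited count table named Wnt plus a number, Fzd plus a number, Sfrp or Dkk plus a digit, Lrp5, Lrp6 or Wif1, which gave 40 of 41730 rows. They comprised 19 Wnt ligands, 10 Frizzled receptors, Lrp5 and Lrp6, 4 Sfrp antagonists, and 5 antagonists of the Dkk and Wif1 kind. 4T1 is a transplantable mammary carcinoma line of the mouse, labelled here as breast cancer cells, and the spheroids were grown as hanging drops in medium with 10% serum. All cells had been transduced by lentivirus. The vector encoded a scrambled shRNA in the control group (shCtrl, 4 libraries) and an shRNA against Tlr7, the endosomal receptor for single-stranded RNA, in the other (shTlr7, 4 libraries). The labels name no further hairpin and no rescue, so an effect of Tlr7 and one of the hairpin itself cannot be told apart. Whether replicates were grown as separate cultures is not stated, and p-values therefore measure only the spread between these libraries, which may be technical.

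Wnt proteins are lipid-modified secreted signals. In the beta-catenin branch of the pathway, a Wnt bridges a Frizzled receptor and the coreceptor Lrp5 or Lrp6, beta-catenin escapes degradation, and TCF/LEF factors activate their targets. Sfrp proteins and Wif1 bind Wnts outside the cell, whereas Dkk1 and related proteins block Lrp5 and Lrp6. In the mammary gland the pathway maintains stem and progenitor cells, and Wnt1 was identified as a gene activated by insertions of the mouse mammary tumour virus.

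Library totals ran from 18.1 to 93.8 M counts. Tlr7 itself had 2, 3, 2 and 2 counts in shCtrl and 0, 4, 3 and 0 counts in shTlr7, too few to show a knockdown. Of 9 carcinoma epithelial markers 7 passed the low-count filter, with a summed level of 4845 to 5102 CPM (counts scaled to the effective library size) in shCtrl and 4087 to 4434 CPM in shTlr7, while Krt5 and both rows of Cldn7 were at 0. Within that list Epcam and Cdh1 were called as higher, and Krt8, Krt18, Krt19 and Krt14 as lower, Krt14 from 36.2 ± 2.95 to 3.26 ± 1.08 CPM (SD, n = 4 each). Endothelial markers summed to at most 0.750 CPM. The macrophage and leukocyte markers summed to 23.2 to 28.1 CPM in shCtrl and 31.3 to 44.4 CPM in shTlr7, nearly all of it Cd68, which was called as higher. Csf1r was called as lower at 1.14 ± 0.200 and 0.241 ± 0.0554 CPM (SD, n = 4 each), with Adgre1 and Lyz2 at 0 in every library. The fibroblast markers summed to 42.3 to 43.7 and 43.3 to 48.6 CPM, nearly all of it Pdgfra, which was not called. Fap was called as higher at 0.359 ± 0.117 and 2.01 ± 0.394 CPM (SD, n = 4 each), with Col3a1, Thy1 and Dpt at 0. The part of these cell types in the results below was not tested. The library numbered 4 of each group stood farthest from its group, with a chi-square per degree of freedom of 11.5 to 21.9 against the other libraries of the group, where the remaining pairs gave 2.23 to 10.2.

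Among the 40 members, 20 passed an ordinary low-count filter and were tested: 9 Wnt ligands, 8 Frizzled receptors, Lrp5, Lrp6 and Sfrp1. In shTlr7, 8 of these 20 were lower (Wnt10b, Wnt10a, Wnt7a, Fzd2, Wnt9a, Sfrp1, Lrp6 and Fzd7) and 2 were higher (Fzd5 and Fzd3), by edgeR's quasi-likelihood test with Benjamini-Hochberg adjusted p under 0.05 over all genes. Of all 13393 genes tested, 56.1% were called, 26.8% as lower and 29.3% as higher, so that 10 called of 20 is close to the background. The median log2 fold change of the 20 was -0.16, beside 0.01 over all genes tested. For 9 of the 20 (7 lower, 2 higher) the CPM ranges of the groups were fully separate, where 49.8% of all genes tested behaved so and 23.8% in the lower direction. In bulk RNA, fewer cells that express a gene and less of its RNA per cell cannot be told apart. Without both libraries numbered 4, 10 members were lower and 3 higher, of 19 that passed the filter. Calls over all genes also went up there, to 4046 lower and 4213 higher. Without TMM, with library size as the only scaling, the median of all genes went from 0.01 to 0.11 and the split over all genes was 5513 higher and 2491 lower, against 3927 and 3590 with TMM scaling. Under it 7 members were lower and 3 higher.

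**Figure D1:**
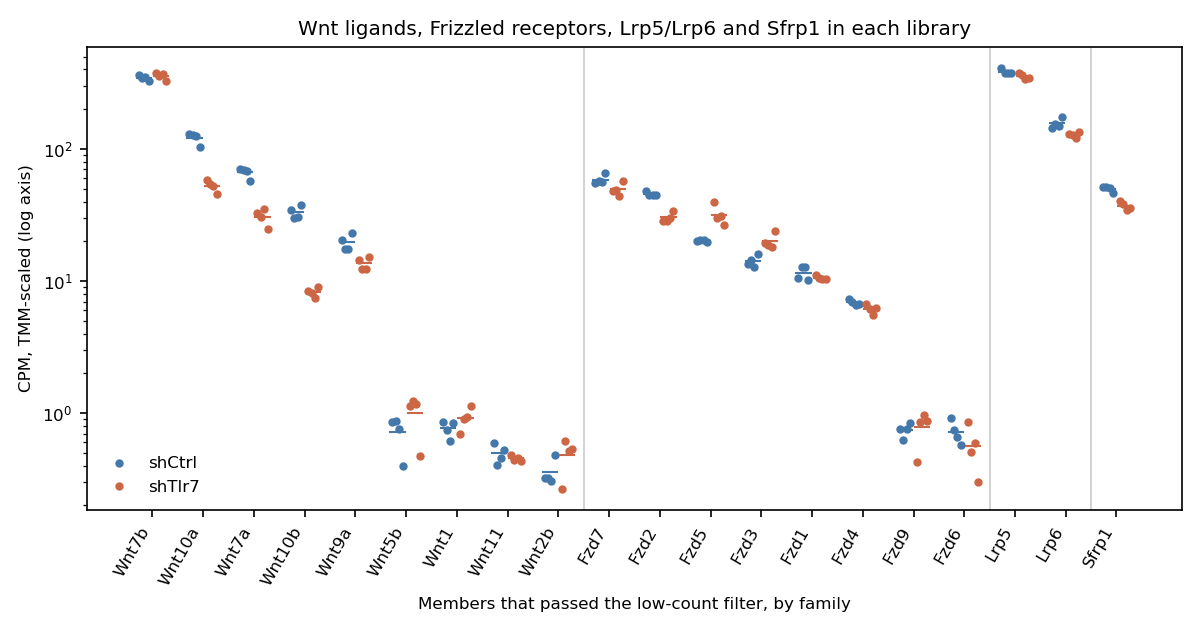
CPM of the 20 members that passed the low-count filter, on a log axis, in the 4 shCtrl and 4 shTlr7 libraries, with bars at the group means. Wnt7b and Lrp5 are the members with the most counts. Wnt10a, Wnt7a and Wnt10b are among the 9 members with no overlap between groups, where 49.8% of all genes tested showed none.

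The Wnt ligands carried the largest differences. Of the 9 tested, 4 (44.4%) fell and none rose, where 56.1% of all genes tested were called, 26.8% as lower and 29.3% as higher. Of the 9 tested ligands, 3 were called as lower with a fall of at least 2-fold, as were 4.23% of all genes tested. The fall was steepest for Wnt10b, a ligand known to hold back fat cell formation and to cause mammary tumours when overexpressed in mice. Wnt10b (chromosome 15, 98770712 to 98778206, GRCm38.p6) stood at 34.6, 30.1, 30.7 and 37.6 CPM in shCtrl replicates 1 to 4 and at 8.36, 8.14, 7.47 and 9.03 CPM in shTlr7 replicates 1 to 4. Every shTlr7 library lay far below every shCtrl library. The log2 fold change was -2.01 ± 0.09 (SE; edgeR adjusted p = 6.70e-10), which left 24.8% of the shCtrl level.

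Its paralogue Wnt10a (chromosome 1, 74792019 to 74804176), known for its part in teeth, hair and other skin appendages, was the more abundant of the pair. Its values were 131, 128, 124 and 104 CPM in shCtrl and 57.7, 54.4, 52.1 and 45.3 CPM in shTlr7. The groups were again clear of each other, and replicate 4 was lowest in both. Wnt10a fell by 1.22 ± 0.08 on the log2 scale (SE; edgeR adjusted p = 2.55e-07). Wnt7a (chromosome 6, 91363981 to 91411353), which patterns limbs and the female reproductive tract, followed the same order, with 71.0, 69.3, 68.7 and 57.3 CPM in shCtrl and 32.5, 30.4, 35.1 and 24.6 CPM in shTlr7. Replicate 4 was the lowest library of each group here too. Wnt7a fell by 1.12 ± 0.10 (log2, SE; edgeR adjusted p = 5.01e-06).

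Wnt9a, a ligand of joint formation (chromosome 11, 59306849 to 59333552), changed less. It had 20.5, 17.5, 17.6 and 23.2 CPM in shCtrl and 14.4, 12.4, 12.4 and 15.3 CPM in shTlr7. Replicate 4 was the highest library of each group, and the groups did not overlap. Wnt9a had a log2 fold change of -0.54 ± 0.10 (SE; edgeR adjusted p = 6.20e-04).

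Wnt7b, the paralogue of Wnt7a and a ligand of lung, kidney and brain vessel development, was the ligand with the most counts and did not pass the threshold. Wnt7b (chromosome 15, 85535437 to 85581821) stood at 362, 344, 350.4 and 325 CPM in shCtrl and at 373, 356, 372 and 329 CPM in shTlr7, so that shTlr7 replicates 1 and 3 lay above every shCtrl library and the other 2 within the shCtrl range. Its log2 fold change was 0.05 ± 0.05 (SE; edgeR adjusted p = 0.401). Scaling by library size alone put it past the threshold, at 0.15 (edgeR adjusted p = 0.0113). Another gene, AU022754, overlaps 6.61% of its exonic bases, and since the strand setting of the counting is not given, reads of the overlap cannot be told apart.

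The other tested ligands, Wnt1, Wnt5b, Wnt11 and Wnt2b, lay between 0.268 and 1.23 CPM in every library, and none passed the threshold. Wnt1, the mammary oncogene, had 0.863, 0.749, 0.612 and 0.840 CPM in shCtrl and 0.697, 0.898, 0.941 and 1.14 CPM in shTlr7, with overlapping groups and a log2 fold change of 0.28 ± 0.21 (SE). Wnt5b, which signals largely without beta-catenin, had one of 0.48 ± 0.30, Wnt2b of 0.57 ± 0.29 and Wnt11, a ligand of cell movements, of -0.09 ± 0.24. Wnt5b passed the threshold without shTlr7 replicate 4 (0.68, edgeR adjusted p = 0.0241) and without both libraries numbered 4 (0.49, edgeR adjusted p = 0.0468), over a range of adjusted p from 0.0241 to 0.730 in all its alternatives. Wnt2b passed it without shTlr7 replicate 1 (0.68, edgeR adjusted p = 0.0468) and under limma-voom. Its adjusted p ranged from 0.0407 to 0.378 over all its alternatives. The direction of Wnt11 turned to 0.02 under scaling by library size alone. Another gene, Gm8398, overlaps 8.8% of the exonic bases of Wnt11, and reads of the overlap cannot be told apart.

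The remaining 10 ligands did not pass the filter. Wnt6 came nearest, with 30 counts over the shCtrl and 48 over the shTlr7 libraries, and at most 0.590 CPM. Wnt4, a ligand of mammary side branching, had 11 counts in each group, Wnt16 had 8 and 7, and Wnt5a, the best known ligand of the branches without beta-catenin, had 10 and 7. Wnt3, Wnt8a, Wnt8b and Wnt9b had 2 or 3 counts in all, and Wnt2 and Wnt3a were at 0 in all 8 libraries. Taking 3 counts as the limit, a count of 0 allows up to 0.166 CPM in the shallowest library and 0.0320 CPM in the deepest. These 2 limits are per raw library total, without TMM scaling, and cover counting error only.

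**Figure D2:**
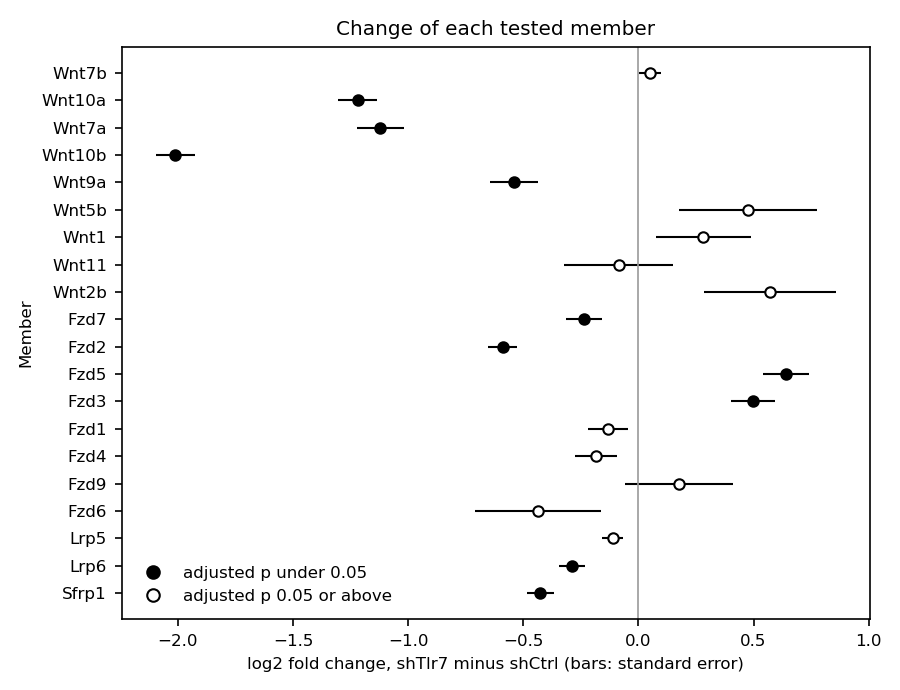
Log2 fold change (shTlr7 minus shCtrl) of the 20 tested members with standard errors as bars. Filled points passed the adjusted p threshold of 0.05. Wnt10b lies at -2.01, and Fzd5 and Fzd3 are the filled points to the right of 0.

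Levels of different genes were compared per kilobase of exon. On that scale Wnt7b led the ligands with 70.5 ± 3.21 CPM per kb in shCtrl and 73.0 ± 4.19 in shTlr7 (SD, n = 4 each). Wnt10a followed with 49.4 ± 4.85 and 21.2 ± 2.13, and Wnt7a with 20.98 ± 1.97 and 9.66 ± 1.41. Wnt10b ranked above Wnt9a in shCtrl, at 9.78 ± 1.03 against 5.92 ± 0.823, and below it in shTlr7, at 2.43 ± 0.189 against 4.09 ± 0.438. The other tested ligands lay under 0.4 CPM per kb on average in both groups, and Wnt1 and Wnt5b did not differ from each other beyond their spread in either group.

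The sum over all 19 ligands was 167, 159, 159 and 146 CPM per kb in shCtrl and 118, 112, 115 and 102 in shTlr7, a log2 ratio of the means of -0.50. The groups did not overlap. Wnt7b made up 44.8 ± 0.640% of that sum in shCtrl and 65.5 ± 0.716% in shTlr7, Wnt10a 31.3 ± 1.56% and 19.0 ± 0.931%, and Wnt10b 6.24 ± 0.935% and 2.19 ± 0.302% (SD, n = 4 each). These sums rest on members chosen with earlier results known and carry no test.

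**Figure D3:**
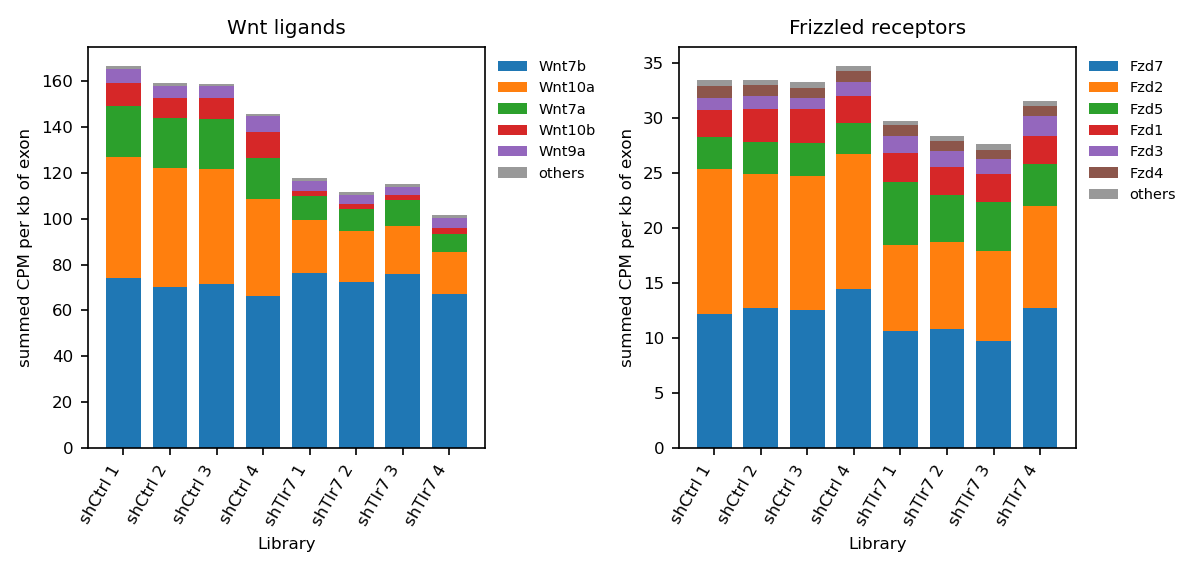
Summed CPM per kb of exon in each library, stacked by gene, for the 19 Wnt ligands and the 10 Frizzled receptors. The Wnt7b part of the ligand bars has similar heights in both groups (means of 70.5 and 73.0 CPM per kb), while the parts above it are shorter in shTlr7.

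Several ligand genes are chromosomal neighbours. Wnt10b lies 11650 bases from Wnt1, Wnt6 lies 6696 bases from Wnt10a, and Wnt3a lies 16097 bases from Wnt9a, while the annotated ranges of Wnt9b and Wnt3 overlap by 1098 bases. In each of the pairs with a tested gene, the member that fell had a neighbour with a low count or none: Wnt1 averaged 0.766 CPM in shCtrl and Wnt6 at most 0.590 CPM in a library, and Wnt3a was at 0. Apart from Wnt4 and Wnt5a, no Wnt ligand shared a stretch of 50 bases with the annotated transcripts of any other gene. Reads of that length that match exactly can therefore not be exchanged between ligand paralogues. Wnt4 shared 3.85% of such stretches with other genes and Wnt5a 0.0128%. Beyond the ligands the share was 1.18% for Dkk1 and 0.722% for Lrp6.

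The RefSeq promoter table, which spans 250 bases before to 50 after a gene's start, held 26 of the 40 members. Among the 10 that changed it held Wnt10b, Wnt7a, Wnt9a, Fzd7 and Fzd5 but not Wnt10a, Fzd2, Fzd3, Lrp6 or Sfrp1. The 250 bases before the start are shown for the member with the largest fall and the one with the largest rise among those whose window begins at the outermost annotated start. The sequences are given 5′ to 3′ on the gene's own strand (minus for both), and capitals mark CG dinucleotides.
Wnt7a, chr6:91411354-91411603: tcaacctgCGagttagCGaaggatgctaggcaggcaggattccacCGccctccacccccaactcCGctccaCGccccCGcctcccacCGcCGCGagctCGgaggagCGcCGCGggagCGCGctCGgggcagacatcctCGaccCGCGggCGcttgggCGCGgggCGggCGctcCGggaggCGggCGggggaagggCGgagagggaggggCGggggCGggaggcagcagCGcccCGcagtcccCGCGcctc
Fzd5, chr1:64737751-64738000: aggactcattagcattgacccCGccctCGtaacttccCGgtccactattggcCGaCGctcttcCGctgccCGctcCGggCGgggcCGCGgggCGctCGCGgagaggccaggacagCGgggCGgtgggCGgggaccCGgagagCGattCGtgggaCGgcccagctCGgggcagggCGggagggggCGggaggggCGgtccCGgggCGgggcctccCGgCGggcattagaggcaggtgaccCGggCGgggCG
Both are rich in CG, the fallen and the risen gene alike, with 34 CG in the Wnt7a stretch and 32 in the Fzd5 stretch. Over the full 300 bases they held 42 and 38 CG and the other 3 windows 18 to 58, where the median over 32851 promoter windows was 7. None of the 5 windows held, on either strand, the letters CTTTGA (a TCF/LEF core, in 16.0% of all windows), TGANTCA (AP-1, 7.81%) or GGAATG (TEAD, 14.7%), nor the core of an interferon-stimulated response element (3.44%). These letters were searched one by one without regard to overlap.

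The Frizzled receptors moved in both directions. Of 8 tested, 2 were lower, 2 higher and 4 not called, beside 26.8% lower and 29.3% higher over all genes tested. The count is thus close to the background. Fzd2 (chromosome 11, 102604431 to 102608058), a receptor linked to cell migration, stood at 48.4, 44.7, 45.0 and 45.0 CPM in shCtrl and at 28.7, 28.7, 30.1 and 34.2 CPM in shTlr7. The groups were well apart, and the log2 fold change was -0.59 ± 0.06 (SE; edgeR adjusted p = 2.96e-06). Fzd7 (chromosome 1, 59482147 to 59486955), a receptor of the same subfamily that is prominent in mammary stem cells, had 55.1, 57.5, 56.7 and 65.4 CPM in shCtrl and 48.4, 49.2, 44.0 and 57.7 CPM in shTlr7. Replicate 4 was the highest of each group, and shTlr7 replicate 4 lay above 3 of the shCtrl libraries. Fzd7 fell by 0.24 ± 0.08 on the log2 scale (SE; edgeR adjusted p = 0.0215). That call was lost under scaling by library size alone (-0.13, edgeR adjusted p = 0.186) and without shTlr7 replicate 1 (-0.22, edgeR adjusted p = 0.0563), replicate 2 (-0.23, 0.0550) or replicate 3 (-0.18, 0.0614).

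Fzd5 and Fzd3 rose. Fzd5 (chromosome 1, 64730558 to 64737750), a receptor of intestinal and eye development whose upstream sequence is shown above, was tight in shCtrl at 19.95, 20.3, 20.5 and 19.8 CPM and spread in shTlr7 at 39.6, 29.8, 31.0 and 26.4 CPM. The lowest shTlr7 library was still above all of shCtrl, and replicate 1 was the highest. The log2 fold change was 0.64 ± 0.10 (SE; edgeR adjusted p = 1.67e-04). Another gene, Gm38058, overlaps 17.8% of the exonic bases of Fzd5, and its reads cannot be told apart in this count table. Fzd3 (chromosome 14, 65192441 to 65262463), which guides axons and acts in planar polarity, went from 13.4, 14.3, 12.8 and 16.0 CPM to 19.3, 18.8, 18.2 and 23.9 CPM, without overlap. Its log2 fold change was 0.50 ± 0.10 (SE; edgeR adjusted p = 5.86e-04).

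Among the receptors that were not called, Fzd1, the remaining member of the Fzd2 and Fzd7 subfamily, had 10.6, 12.7, 12.8 and 10.1 CPM in shCtrl and 11.1, 10.6, 10.4 and 10.4 CPM in shTlr7, with overlapping groups and a log2 fold change of -0.13 ± 0.09 (SE). Leaving out shCtrl replicate 4 (-0.20, edgeR adjusted p = 0.0449) or both libraries numbered 4 (-0.20, edgeR adjusted p = 0.0405) brought Fzd1 past the threshold. So did limma-voom (-0.19, limma-voom adjusted p = 0.0334), with adjusted p from 0.0334 to 0.791 over all its alternatives. Fzd4, the receptor of Norrin in retinal vessels, lay between 5.51 and 7.33 CPM, with a log2 fold change of -0.18 ± 0.09. Of its alternatives only limma-voom put it past the threshold (-0.18, limma-voom adjusted p = 0.0499). Fzd9 and Fzd6 lay under 1 CPM in every library, with log2 fold changes of 0.18 ± 0.24 and -0.44 ± 0.28. Fzd8 and Fzd10 were at 0 in all 8 libraries.

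Per kilobase of exon, Fzd7 and Fzd2 led the receptors and did not differ from each other beyond their spread in shCtrl (12.9 ± 1.01 and 12.5 ± 0.480 CPM per kb), whereas in shTlr7 they stood at 10.99 ± 1.26 and 8.31 ± 0.709. Fzd5 and Fzd1 followed at 2.92 ± 0.0452 and 2.75 ± 0.331 in shCtrl, within their spread, and at 4.58 ± 0.810 and 2.53 ± 0.0786 in shTlr7. The order of the 8 receptors was the same in both groups. The sum of the family was 33.5, 33.5, 33.3 and 34.7 CPM per kb in shCtrl and 29.7, 28.4, 27.7 and 31.6 in shTlr7, a log2 ratio of the means of -0.20 that became -0.10 under scaling by library size alone. Fzd2 gave 37.1 ± 1.75% of it in shCtrl and 28.3 ± 1.63% in shTlr7, and Fzd5 gave 8.65 ± 0.285% and 15.7 ± 2.95% (SD, n = 4 each).

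Both coreceptors were well expressed, and Lrp6 was called as lower while Lrp5 just missed the threshold. Lrp5 (chromosome 19, 3584825 to 3686585), known from inherited disorders of bone mass, had 409.6, 373, 373 and 375 CPM in shCtrl and 373, 361, 339.7 and 342 CPM in shTlr7. The groups overlapped only between shTlr7 replicate 1 and shCtrl replicate 2, at 373 CPM, and the log2 fold change of -0.11 ± 0.05 (SE) missed the threshold (edgeR adjusted p = 0.0511). Of 19 alternatives 10 put it past the threshold, among them leaving out shTlr7 replicate 1 (-0.14, edgeR adjusted p = 0.0298) or shCtrl replicate 4 (-0.13, 0.0237). Lrp5 stood at -0.01 under scaling by library size alone. Lrp6 (chromosome 6, 134446476 to 134566913), the coreceptor most often needed for beta-catenin signalling, had 145, 154, 150.3 and 176 CPM in shCtrl and 129, 129, 121 and 134 CPM in shTlr7. Its groups did not overlap, and it fell by 0.29 ± 0.06 (log2, SE; edgeR adjusted p = 7.92e-04). Per kilobase of exon Lrp5 reached 39.3 ± 1.85 in shCtrl and 36.3 ± 1.64 in shTlr7, against 11.4 ± 1.00 and 9.37 ± 0.394 for Lrp6, which put Lrp5 above every Frizzled and Lrp6 beside Fzd7 and Fzd2. The place of Lrp6 depends on the length taken. Its exons cover 13672 bases and its longest transcript 9368, which would raise its level, while the lengths of Fzd7 and Fzd2 stay the same.

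Of the 9 secreted antagonists only Sfrp1 was tested, and it fell. Sfrp1 (chromosome 8, 23411383 to 23449632), which carries a Frizzled-like domain and is often silenced in breast cancer, had 51.4, 51.6, 50.3 and 46.4 CPM in shCtrl and 40.6, 38.2, 34.5 and 35.6 CPM in shTlr7. The groups did not overlap, and the log2 fold change was -0.43 ± 0.06 (SE; edgeR adjusted p = 3.59e-05). Dkk1, Dkk2 and Sfrp4 were at 0 in all 8 libraries. Sfrp2 and Wif1 had 0 counts in shCtrl and 3 counts each in shTlr7, Sfrp5 had 1 and 4, Dkk3 had 1 and 3, and Dkk4 had 1 and 1. At this depth a difference between groups was not detectable for them. Frzb, the Sfrp family member whose name the rule does not take, was also at 0.

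The change of paralogues was set side by side as the log2 ratio of their counts within each library, which does not depend on scaling. The 7 pairs were chosen with the results in view, so the ratios are a description and carry no test. The ratio of Wnt10b to Wnt10a was -1.87 ± 0.28 in shCtrl and -2.66 ± 0.23 in shTlr7 (SD, n = 4 each), with every shTlr7 library below every shCtrl library. That of Wnt7a to Wnt7b was -2.38 ± 0.08 and -3.56 ± 0.14, also without overlap. The difference between groups was -0.35 for Fzd2 over Fzd7, -0.48 for Fzd2 over Fzd1 and -0.13 for Fzd7 over Fzd1. It was -0.94 for Fzd6 over Fzd3, where Fzd6 has few counts, and -0.17 for Lrp6 over Lrp5.

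Beyond the members, 90 other genes of the pathway were examined in 7 lists that share some genes. Of these, 65 were tested, and 12 were higher and 30 lower in shTlr7, beside 29.3% and 26.8% of all genes tested. Under scaling by library size alone 19 were higher and 27 lower. Around Wnt secretion, 4 of 7 genes were higher and 2 lower (median log2 fold change 0.15). Porcn, the enzyme that attaches the lipid to Wnt proteins, fell from 17.9 ± 1.33 to 9.52 ± 0.323 CPM (SD, n = 4 each; log2 fold change -0.91 ± 0.07 (SE), edgeR adjusted p = 2.42e-07). The cargo receptor Tmed10 had a log2 fold change of -0.31. Wls, which carries Wnts to the cell surface and was chosen after its values were seen, rose by 0.17 (edgeR adjusted p = 0.0242).

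Of 10 other Wnt receptors and coreceptors, 7 were tested, of which 6 were lower and none higher (median -0.49). Over all genes tested, 26.8% were called as lower and 29.3% as higher. Adgra2, which forms with Reck a coreceptor for Wnt7a and Wnt7b, fell from 7.73 ± 1.01 to 1.53 ± 0.324 CPM (SD, n = 4 each; log2 fold change -2.36 ± 0.15 (SE), edgeR adjusted p = 2.66e-08). Reck itself, chosen after its values were seen, had 6.85 ± 1.11 and 7.20 ± 0.705 CPM and was not called (0.08 ± 0.12). Ror1, a receptor of Wnt5a, fell by 1.21 on the log2 scale from 6.25 ± 1.45 CPM, and Lrp4 by 0.98 from 5.92 ± 0.519 CPM. Among R-spondins and the genes of receptor turnover, 4 of 9 were tested and 2 were lower. Lgr6, a receptor for R-spondins, fell from 267 ± 6.85 to 106 ± 11.2 CPM (SD, n = 4 each; log2 fold change -1.33 ± 0.06 (SE), edgeR adjusted p = 4.68e-09). Rspo3, the one R-spondin tested, had a fall from 1.12 ± 0.299 to 0.578 ± 0.107 CPM (SD, n = 4 each; edgeR adjusted p = 0.00253), with overlapping groups.

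Of 17 other antagonists 8 were tested, with 5 lower and 1 higher (median -0.33). Beside this list and those below, 26.8% of all genes tested were lower and 29.3% higher. Apcdd1, a membrane inhibitor of Wnt signalling, stood at 67.3 ± 3.32 and 39.8 ± 2.67 CPM. The secreted Igfbp4 stood at 1566 ± 50.2 and 1191 ± 55.1 CPM, and both were called as lower. In the cytoplasmic core 3 of 20 tested were higher and 5 lower, with a median of -0.02. Ctnnb1, which encodes beta-catenin, fell from 2790 ± 61.9 to 1825 ± 63.0 CPM (SD, n = 4 each; log2 fold change -0.61 ± 0.04 (SE), edgeR adjusted p = 5.22e-08), and the beta-catenin kinase Csnk1a1 had a log2 fold change of -0.35. Dvl2 had 1 count over shCtrl and 2 over shTlr7 in its own row, while a further copy row of it held 197 and 295, so its level is uncertain. The same holds for Ctnnbip1, which was not called. It had 61 and 93 counts in its own row and 461 and 532 in a copy row. Of 11 tested planar polarity genes 3 were higher and 5 lower, with Prickle1 at -0.99 and Vangl2 at -0.62. Of 11 tested nuclear factors and feedback targets 1 was higher and 7 lower (median -0.62). Lef1 went from 2.32 ± 0.224 to 0.762 ± 0.0529 CPM, the coactivator Bcl9 from 122 ± 3.85 to 79.0 ± 1.83 CPM, and the cyclin Ccnd1 from 2470 ± 166 to 1473 ± 35.5 CPM, all 3 called as lower (edgeR adjusted p = 1.91e-06, 3.34e-08 and 5.19e-08). Other genes overlap 15.1% of the exonic bases of Ctnnb1, 23.4% of those of Ccnd1 and 13.7% of those of Lef1. Reads of these overlaps cannot be told apart.

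**Figure D4:**
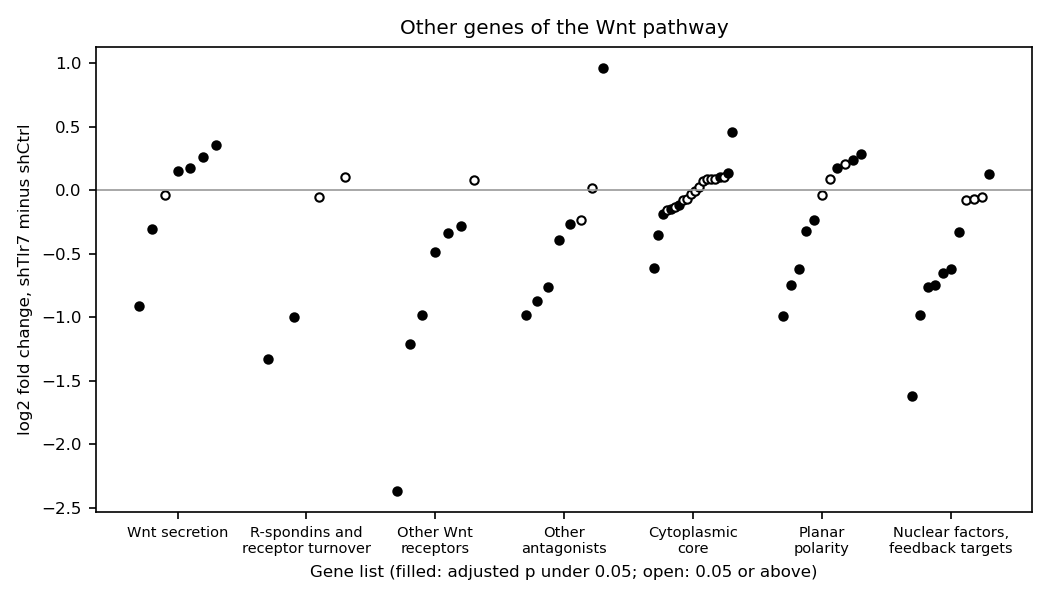
Log2 fold change (shTlr7 minus shCtrl) of every tested gene of the 7 other pathway lists, sorted within each list; filled points passed the adjusted p threshold of 0.05. The lowest point, at -2.36, is Adgra2, and 6 of the 7 points of the other Wnt receptors are filled and below 0. Over all genes tested, 26.8% were called as lower.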

How the data were processed

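The deposited values were raw counts, 1 column for each of the 8 libraries. STAR 2.7.5, DESeq2 1.32.0 and GRCm38 appear in the submitters' processing notes with no role stated. For the counting program, its strand setting and its annotation, the sources used here give nothing. Per the labels' protocols, TruSeq libraries were made from 500 ng of total RNA. Groups came from the sample titles. Counts were filtered with filterByExpr, scaled by TMM and tested over all 13393 remaining genes with edgeR 4.0.16 in R 4.3.3 (robust quasi-likelihood fit, group only, Benjamini-Hochberg adjusted p under 0.05). Standard errors are the log2 fold change over the square root of F. CPM used TMM-scaled library sizes, and exon lengths came from GENCODE M21. The fit was checked on simulated data in which few genes changed, in random directions. In the real data 56.1% of genes were called, so the check does not cover scaling when many genes move.

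The members, lists and alternatives were chosen with earlier results of these data known. All members are named. From each pathway list the text takes called genes with an absolute log2 fold change of at least 1 and the 2 lowest p. Alternatives were RLE, upper-quartile and library-size scaling, DESeq2 1.42.0, limma-voom (limma 3.58.1), no filter, at least 1 CPM in 4 libraries, summed copies, thinning to 18.1 M counts, a replicate block and left-out libraries. Depth sets the limit of detection, at 3 counts per library. Paralogue ratios were added after the data were seen.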

Additional observations from a re-analysis of the deposited data

Results flagged for a closer look

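Within groups of 4 libraries, 8 of 80 groups checked held a library whose gap to its nearest neighbour exceeded Dixon's 95% critical value, where chance flags about 1 in 20. In shCtrl replicate 4, Wnt7a was low at 57.3 CPM (68.7 to 71.0 in the others), Wnt2b was high at 0.486 CPM (0.306 to 0.324), Lef1 was high at 2.65 CPM (2.17 to 2.24), and the Frizzled sum was high at 34.7 CPM per kb (33.3 to 33.5). In shTlr7 replicate 4, Wnt5b was low at 0.470 CPM (1.13 to 1.23), and Vangl2 was high at 29.6 CPM (26.5 to 26.9). In shCtrl replicate 1, Fzd2 was high at 48.4 CPM (44.7 to 45.0) and Lrp5 at 409.6 CPM (373 to 375). Thus 6 of the 8 involve a library numbered 4.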

How the results depend on the processing

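Over up to 19 alternatives, 9 of the 10 called members kept their call and direction, and Fzd7 lost its call under 4. Of the 10 others, 4 were never called. Members called as lower ranged from 7 to 11 and as higher from 2 to 3. The 16 named pathway genes kept their calls in all 303 refits. They were named for a low p or a large change in these same data, so this was likely in advance. For the other pathway genes, Wls, Notum and Shisa2 among them, single calls were not followed over the alternatives. The reversed value was that of Wnt11 under library size alone (0.017). Under library size alone, 19 pathway genes were higher, and the log2 ratios of summed levels were -0.40 for ligands, -0.10 for Frizzleds, -0.047 for Lrp5 and Lrp6 and -0.32 for Sfrps; the cause was not tested. With the longest transcript as length, the ligand ratio was -0.40 and Wnt7b gave 53.1% of the ligand sum in shCtrl and 72.8% in shTlr7. Without the low-count filter 33 members were tested, since all with any count enter, and none of the additional 13 was called. With the replicate number as a block, 9 members were lower and 2 higher, Lrp5 being added (-0.11, edgeR adjusted p = 0.0132). Same-numbered libraries shared deviations weakly for numbers 1 to 3 (correlations of -0.00676, 0.114 and 0.118). For number 4 the correlation was 0.380, the highest of any pair of a shCtrl and a shTlr7 library. Not every library correlated best with its own number, and the numbers were not taken as pairs. A deviation shared by the libraries numbered 4 is thus not modelled in the main fit. Of the 20 members below the filter, 7 had no count in any library, so no change could be estimated. The 13 others had few counts, which left their changes poorly resolved.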

Other observations

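Transcripts of several classic beta-catenin feedback targets had few counts or none in both groups. Axin2 had 14 counts over the shCtrl and 26 over the shTlr7 libraries, Nkd1 had 1 and 2, Lgr5 had 5 and 2, and Sp5 was at 0 in all 8 libraries. Rnf43 was at 0 in its own row and had 6 and 12 counts in a further copy row. In the same libraries Notum, a secreted enzyme that removes the lipid from Wnt proteins, stood at 27.8 ± 4.92 CPM in shCtrl and 14.04 ± 1.11 CPM in shTlr7 (SD, n = 4 each), and Znrf3, a ligase that removes Frizzled receptors, at 34.3 ± 0.835 and 33.3 ± 2.29 CPM. These genes were chosen after their values were seen. Other genes overlap 38.1% of the exonic bases of Notum, and reads of the overlap cannot be told apart. Shisa2, which retains Frizzled receptors inside the cell, was the 1 antagonist of its list that rose (0.96 ± 0.16, log2, SE; edgeR adjusted p = 1.62e-04).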
